A study of Rattus norvegicus with 4 samples.

Results

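Ubiquitin-conjugating enzymes (E2 enzymes) take activated ubiquitin, or a protein like it, from an E1 activating enzyme and pass it on to a protein chosen by an E3 ligase. Most carry it on a catalytic cysteine, and the E2 that takes part often fixes which modifier is attached and which kind of chain is built. In macrophages they serve protein turnover, the cell cycle, DNA repair, signalling from innate immune receptors and the interferon response. The genes described here are those with a symbol starting with Ube2. They were found by matching the accession printed with each non-control array probe to the gene table of RefSeq for the rat assembly GRCr8. This gave 28 genes of the 16579 with a symbol and a value, measured by 39 of 45598 probes. The table holds 100 Ube2 symbols, 45 of them protein coding and 55 pseudogenes, and all 28 genes with a probe were protein coding, so 28 of 45 such genes were measured. Those matched to no probe, Ube2d2, Ube2d4, Ube2e1, Ube2l3, Ube2o, Ube2q2 and Ube2w among them, were not analysed here.

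RNA came from 4 cultures (replicates 1 to 4, biological replicates per the design text) of NR8383, a macrophage line grown from the lung lavage of a healthy rat, in which part of the cells adhere and part float. All 4 carried the same label, exposure to the titanium dioxide material NRCWE001 at 3 cm2 of particles per cm2 for 4 h, and each was hybridised to its own one-colour array. Unexposed cells were not analysed here, and whether the particles raised or lowered a transcript cannot be read from these values. A probe can be compared with the background around it and between the 4 cultures, where differences between cultures and between arrays cannot be told apart. A level is the log2 processed signal minus the 75th percentile of its array (347 to 554 intensity units), so 0 is the signal of that percentile. Probes bind with different strength, so levels are set side by side for the same probe on different arrays and not for different genes. Of the markers fixed for macrophages, 9 of 12 were detected on all arrays, while Marco, Adgre1 and Cd163 were not well above background on any. Markers of other cell types were mostly not detected, with 1 of 8 for lung epithelium (Foxj1), 1 of 4 for lymphoid cells (Nkg7), 1 of 4 for granulocytes and mast cells (Camp) and 2 of 7 for fibroblasts and vessels (Cdh5 and Vwf) detected on all arrays. Their part in the Ube2 signals was not tested.

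Most of the Ube2 genes with a matched probe gave signal well above background in these cells. A gene counted as detected on an array where over 0.5 of the spots of any of its probes carried the scanner software's flag for signal well above background. By that rule 23 of 28 Ube2 genes were detected on all 4 arrays (82.1%), beside 45.7% of all genes measured. Another 2, Ube2l6 and Ube2v2, were detected on some arrays, and 3, Ube2e2, Ube2ql1 and Ube2q2l, on none, where 48.2% of all genes were on none. As RNA was taken from whole cultures, fewer cells with a transcript and less of it per cell cannot be told apart.

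**Figure D1:**
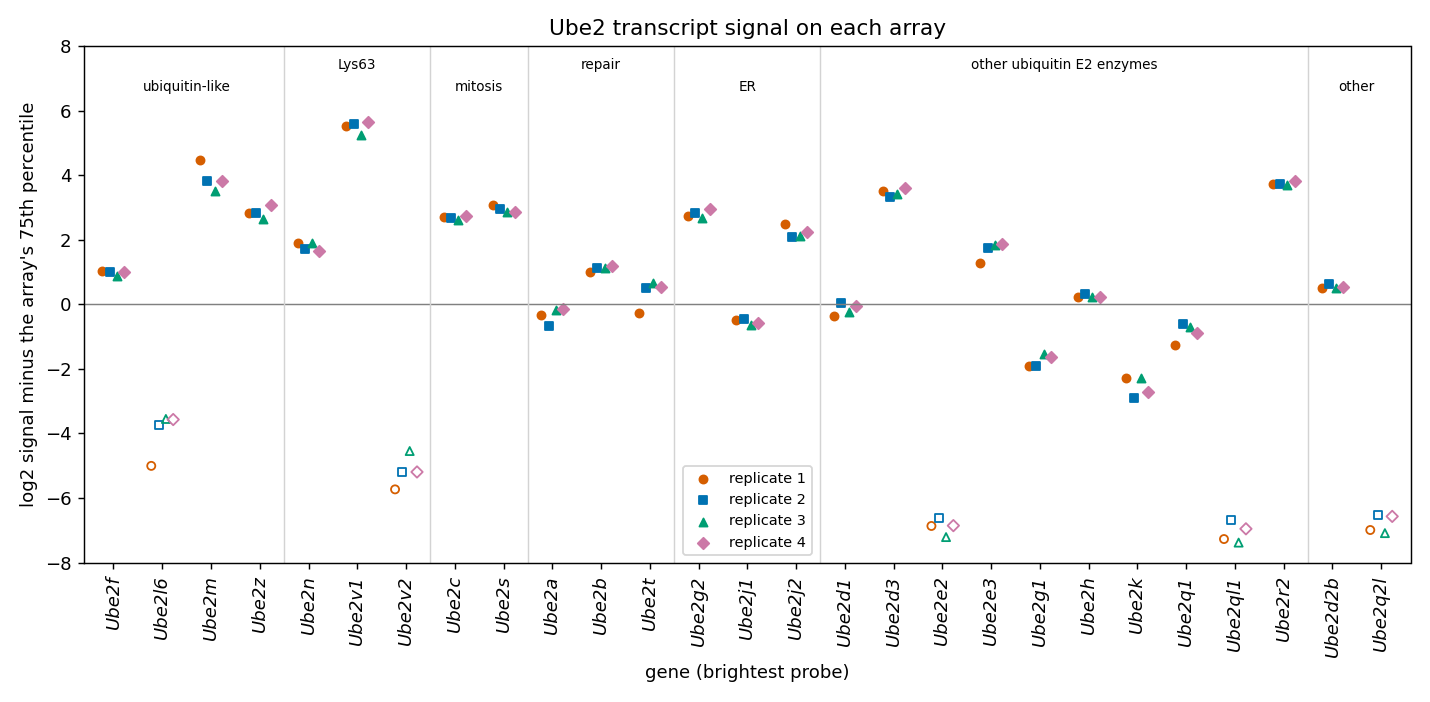
Level of 27 Ube2 genes on each array (log2 scale relative to the 75th percentile of its array, vertical axis), grouped by role along the horizontal axis. Each point is 1 array, filled where the gene was detected on all 4 arrays and open otherwise; the 5 genes with open points all lie below -3.5, and heights of different genes are not comparable.

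Of the 5 enzymes for ubiquitin-like proteins, 4 were detected on all arrays, and Ube2m among them had the second largest SD of the detected members. Ube2m and Ube2f both charge cullin proteins with NEDD8. Ube2m lay at 4.47, 3.83, 3.50 and 3.82 on replicates 1 to 4 (mean 3.91 ± 0.40), so replicate 1 was high, replicate 3 low and the other two almost equal. Ube2f lay at 1.02, 1.01, 0.89 and 1.0033 (mean 0.98 ± 0.06). Its replicate 3 was the low one, but by 0.09 from the mean only. The genes working with both were detected as well, among them Nedd8 at 6.22 ± 0.05, the E1 subunit gene Uba3 at -2.37 ± 0.40 and the ring ligase genes Rbx1 and Rnf7 at 3.83 ± 0.10 and 0.23 ± 0.31, of which Rbx1 is known to pair with Ube2m and Rnf7 with Ube2f. Dcun1d1, a co-ligase of this pathway, was not well above background on any array.

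Ube2l6 is the E2 for ISG15, an interferon-induced modifier. Its signal was 13.5, 25.8, 47.2 and 34.8 intensity units on replicates 1 to 4, or -5.01, -3.75, -3.55 and -3.57 as a level (mean -3.97 ± 0.70), and it was well above background on replicates 2, 3 and 4 but not on replicate 1. The scanner software's own error for these spots ran from 12.9 to 32.3% of the signal, against 10.0 to 10.1% for the brighter Ube2t. Without replicate 1 the level was -3.63 ± 0.11 (SD, n = 3). The transcript of the modifier itself, Isg15, was detected on all arrays at -1.49 ± 0.18, with similar highest values on replicates 1 (-1.33) and 4 (-1.38). As Ube2l6 was not well above background on replicate 1, the order of the arrays cannot be compared between these genes. Ube2z, which charges ubiquitin and the modifier FAT10, lay at 2.82, 2.82, 2.62 and 3.08 (mean 2.83 ± 0.18), while Ubd, the gene of FAT10, was not well above background on any array.

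Of the 3 genes for Lys63-linked chains, 2 were detected on all arrays. Ube2n, the enzyme that builds these chains downstream of Toll-like and interleukin-1 receptors, lay at 1.91, 1.72, 1.88 and 1.65 on replicates 1 to 4 (mean 1.79 ± 0.13). Replicates 1 and 3 were the higher pair and replicates 2 and 4 the lower one. The same order of sides held for all 3 Ube2n probes, which were printed at columns 99, 84 and 22 of the array, and the dimmest of them had an SD of 0.50. Ube2v1, an inactive variant that orients ubiquitin for Ube2n, lay at 5.52, 5.58, 5.26 and 5.64 by its brightest probe (mean 5.50 ± 0.17). The other Ube2v1 probes lay at -0.02 ± 0.07 and -0.68 ± 0.14, and the gene table lists 19 pseudogenes of Ube2v1 and 9 of Ube2n, so which copies each probe reads is uncertain. Ube2v2, the related variant known from DNA damage tolerance, was at -5.73, -5.20, -4.55 and -5.19 (mean -5.17 ± 0.49) and was well above background on replicate 3 only. The ligase genes that work with Ube2n were detected on all arrays, with Traf6 at -3.84 ± 0.15, Rnf8 at -2.60 ± 0.12 and Rnf168 at -1.88 ± 0.24. The least often detected of 3 Rnf8 probes was well above background on 3 arrays only.

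**Figure D2:**
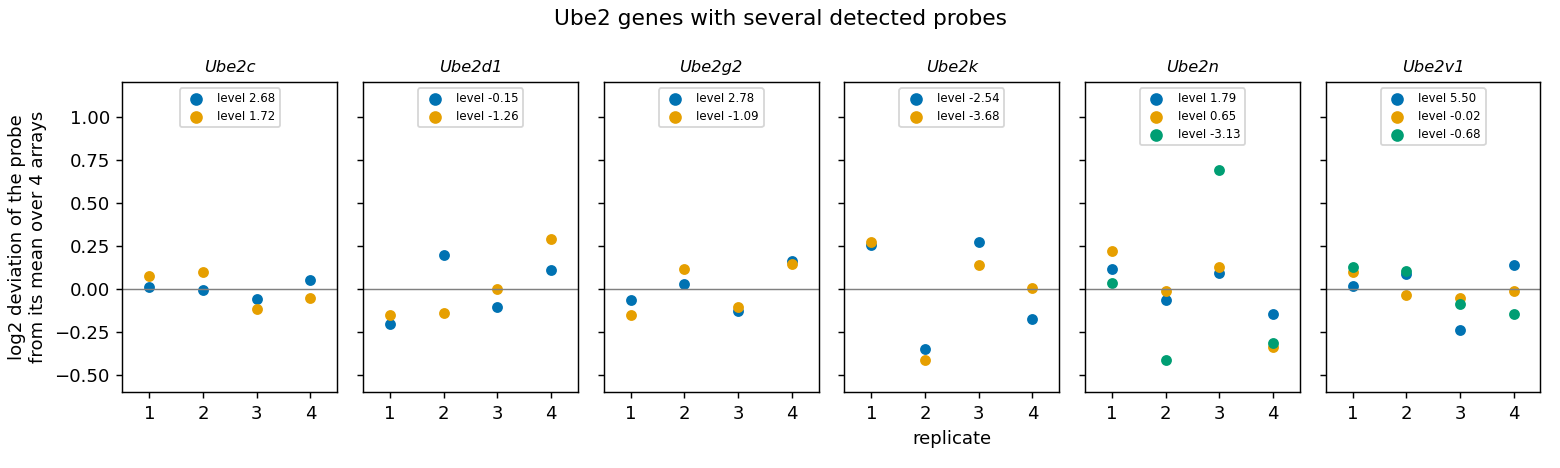
Deviation of each probe from its own mean over the 4 arrays (log2, vertical axis) by replicate, for 6 Ube2 genes with several probes detected on all arrays; colours are probes, with each probe's mean level in the legend. The probes of Ube2g2 and Ube2n lie on the same side of 0 on all 4 arrays, those of Ube2k on 3, and those of Ube2c, Ube2d1 and Ube2v1 on 2.

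Both mitotic enzymes were detected on all arrays, with SDs of 0.05 and 0.10. Ube2c, which starts ubiquitin chains for the anaphase-promoting complex, lay at 2.69, 2.67, 2.62 and 2.73 on replicates 1 to 4 (mean 2.68 ± 0.05). The arrays differed by 0.11 at most for this probe. A second Ube2c probe lay at 1.79, 1.81, 1.60 and 1.67, with an SD of 0.10. Ube2s, which lengthens the same chains, lay at 3.07, 2.94, 2.86 and 2.86 (mean 2.93 ± 0.10), with replicate 1 the highest. Transcripts for some parts of the complex and for its activators were detected on all arrays too. The subunit genes Anapc11 and Anapc2 lay at 6.73 ± 0.16 and 2.16 ± 0.18, and the activator genes Cdc20 and Fzr1 at 0.16 ± 0.11 and -0.83 ± 0.20. The less often detected of 2 Anapc11 probes was well above background on 2 arrays only. The table lists 4 pseudogenes each for Ube2c and Ube2s.

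All 3 enzymes of DNA damage tolerance and repair were detected on every array, and 1 of them, Ube2t, had the largest SD among the detected Ube2 genes. Ube2t, the enzyme of the Fanconi anaemia pathway, lay at -0.26, 0.51, 0.66 and 0.53 on replicates 1 to 4 (mean 0.36 ± 0.42). Replicate 1 stood below the other three, which lay within 0.15 of each other. Its ligase gene Fancl did not share that order, with -1.29 on replicate 1 as its highest value and a mean of -1.44 ± 0.11. Ube2a and Ube2b encode the closely related RAD6 enzymes, which work with the ligases of Rad18 (-3.57 ± 0.29) and Rnf20 (-1.57 ± 0.08). Ube2a lay at -0.34, -0.68, -0.18 and -0.14 (mean -0.33 ± 0.24), with replicate 2 the low array. Ube2b lay at 0.99, 1.11, 1.12 and 1.18 (mean 1.1005 ± 0.08), with another array lowest. With normexp background correction the order of their SDs turned round, to 0.126 for Ube2a and 0.295 for Ube2b.

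Enzymes of protein degradation at the endoplasmic reticulum were detected on all arrays in 3 of 3 cases. Ube2g2, which serves ligases of the reticulum membrane, lay at 2.72, 2.81, 2.66 and 2.95 on replicates 1 to 4 (mean 2.78 ± 0.13). Ube2j1 and Ube2j2 are themselves anchored in that membrane. Ube2j1 lay at -0.47, -0.46, -0.63 and -0.59 (mean -0.54 ± 0.09), and Ube2j2 at 2.47, 2.07, 2.10 and 2.25 (mean 2.22 ± 0.18). Replicate 1 was the highest array for Ube2j2 and replicate 4 for Ube2g2, so the 3 genes shared no order. A second Ube2g2 probe lay at -1.09 ± 0.15. Syvn1, a ligase gene of this pathway, lay at 1.89 ± 0.09. The less often detected of 2 Syvn1 probes was well above background on 2 arrays only.

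Of 10 other ubiquitin enzymes, 8 were detected on all arrays, with SDs from 0.04 to 0.31. Ube2d1 and Ube2d3 belong to a family that works with many ligases. Ube2d1 lay at -0.36, 0.05, -0.25 and -0.04 on replicates 1 to 4 (mean -0.15 ± 0.19). Ube2d3, whose probe was printed on 10 spots, lay at 3.49, 3.32, 3.42 and 3.59 (mean 3.46 ± 0.11). Its single spots had an SD of 0.12 on replicate 1 and 0.06 to 0.09 on the others, and each array's value is the mean of 9 or 10 of them. The spot at column 90, the highest on replicate 1 at 3.72, was left out as an outlier on the other arrays. These SDs are therefore not over the same spots. Ube2r2, a cullin-ligase partner related to Cdc34, lay at 3.73, 3.71, 3.70 and 3.81 (mean 3.74 ± 0.05), and Cdc34 itself at 5.45 ± 0.20. Ube2h had the smallest SD of all detected members and lay at 0.21, 0.30, 0.22 and 0.22 (mean 0.24 ± 0.04). Replicate 2 was the high array there, by 0.08 over the next. With normexp the SDs were 0.129 for Ube2h and 0.13 for Ube2r2.

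Ube2k builds Lys48-linked chains and carries a ubiquitin-associated domain. It lay at -2.29, -2.89, -2.27 and -2.72 on replicates 1 to 4 (mean -2.54 ± 0.31), again with replicates 1 and 3 above replicates 2 and 4. A second Ube2k probe gave -3.41, -4.10, -3.55 and -3.68, with replicate 2 lowest as well. Ube2e3, an enzyme with an extended N-terminus, lay at 1.27, 1.74, 1.83 and 1.86 (mean 1.68 ± 0.28), and Ube2q1 at -1.26, -0.60, -0.71 and -0.88 (mean -0.86 ± 0.29). In both, replicate 1 was the low array. Ube2g1 lay at a mean of -1.75 ± 0.19 and Ube2d2b at 0.54 ± 0.06. A second Ube2d2b probe was not well above background on any array, a split seen in no other member.

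The 5 genes not detected throughout differed in how close they came. Ube2e2 gave signals of 3.71, 3.54, 3.74 and 3.57 intensity units on replicates 1 to 4, 0.09 to 0.11 of the local background, with a software error of 100.3% of the signal and a mean level of -6.89 ± 0.25. Ube2ql1 and Ube2q2l gave signals between 2.80 and 4.36 units and mean levels of -7.07 ± 0.32 and -6.79 ± 0.29. At an error as large as the signal, the order of the arrays cannot be read for these 3 genes. Ube2e2 and Ube2e3 are close relatives within the E2 family, so their promoter windows were set side by side (250 bases before to 50 after the start site, 300 in all, RefSeq, GRCr8), together with those of Ube2l6 and Ube2ql1. The sequences are printed 5′ to 3′ on the strand of the gene, with each CG dinucleotide in capitals and its count beside the number of arrays with detection.

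Ube2e3 (chr3:84193996-84194295, plus strand, detected on 4 arrays, 58 CG):
Ube2e3: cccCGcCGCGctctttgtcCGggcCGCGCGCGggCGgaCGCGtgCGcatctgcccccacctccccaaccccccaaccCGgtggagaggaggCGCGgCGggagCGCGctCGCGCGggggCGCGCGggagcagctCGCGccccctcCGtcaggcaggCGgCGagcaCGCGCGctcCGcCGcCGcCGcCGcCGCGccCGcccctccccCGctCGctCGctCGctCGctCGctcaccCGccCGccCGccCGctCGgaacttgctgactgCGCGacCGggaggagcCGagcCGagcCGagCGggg
Ube2e2 (chr15:9410817-9411116, plus strand, detected on 0 arrays, 7 CG):
Ube2e2: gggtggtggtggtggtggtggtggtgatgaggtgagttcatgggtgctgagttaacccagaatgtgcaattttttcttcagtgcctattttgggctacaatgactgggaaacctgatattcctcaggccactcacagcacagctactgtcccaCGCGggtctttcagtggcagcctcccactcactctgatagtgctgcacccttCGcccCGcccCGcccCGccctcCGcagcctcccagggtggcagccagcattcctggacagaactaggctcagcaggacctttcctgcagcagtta
Ube2l6 (chr3:90279455-90279754, plus strand, detected on 3 arrays, 10 CG):
Ube2l6: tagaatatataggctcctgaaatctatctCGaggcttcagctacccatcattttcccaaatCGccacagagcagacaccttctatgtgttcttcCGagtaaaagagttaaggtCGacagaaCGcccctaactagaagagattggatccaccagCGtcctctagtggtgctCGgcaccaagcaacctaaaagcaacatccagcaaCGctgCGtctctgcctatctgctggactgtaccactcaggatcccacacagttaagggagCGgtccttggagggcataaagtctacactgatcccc
Ube2ql1 (chr1:35377014-35377313, plus strand, detected on 0 arrays, 30 CG):
Ube2ql1: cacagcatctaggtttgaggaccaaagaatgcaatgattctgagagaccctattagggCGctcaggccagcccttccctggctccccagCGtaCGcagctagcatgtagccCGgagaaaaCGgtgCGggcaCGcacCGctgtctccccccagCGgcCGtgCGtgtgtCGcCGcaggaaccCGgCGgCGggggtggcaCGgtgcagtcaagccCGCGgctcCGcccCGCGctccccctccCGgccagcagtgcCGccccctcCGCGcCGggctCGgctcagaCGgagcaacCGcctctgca

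Promoter windows were found for 24 of the 28 genes. Each gene, here and in the sets below, was given the first window listed for its symbol, and other start sites were not examined. CG reads the same on both strands, so each was counted once. The 20 genes detected on all arrays had 18 to 58 CG (median 33.5), Ube2m the fewest and Ube2e3 the most. Ube2e2 with 7 and Ube2l6 with 10 had the fewest of the 24, while Ube2ql1 with 30 and Ube2q2l with 28 lay inside the range of the detected members. The lowest count among the detected members, 18, was then taken as a mark for other genes, so all 20 reach it by construction. Of all genes detected on 4 arrays, 63.8% had at least 18 CG in a window of the same length (median 21, 6378 genes), against 26.2% of those detected on no array (median 6, 6370 genes). Of all genes with a promoter window in the table, with or without a probe, 29.8% held at least 18. Of the genes with a probe 45.1% did (median 15), and of those detected on 1 to 3 arrays 47.1%. The counts describe these windows only.

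**Figure D3:**
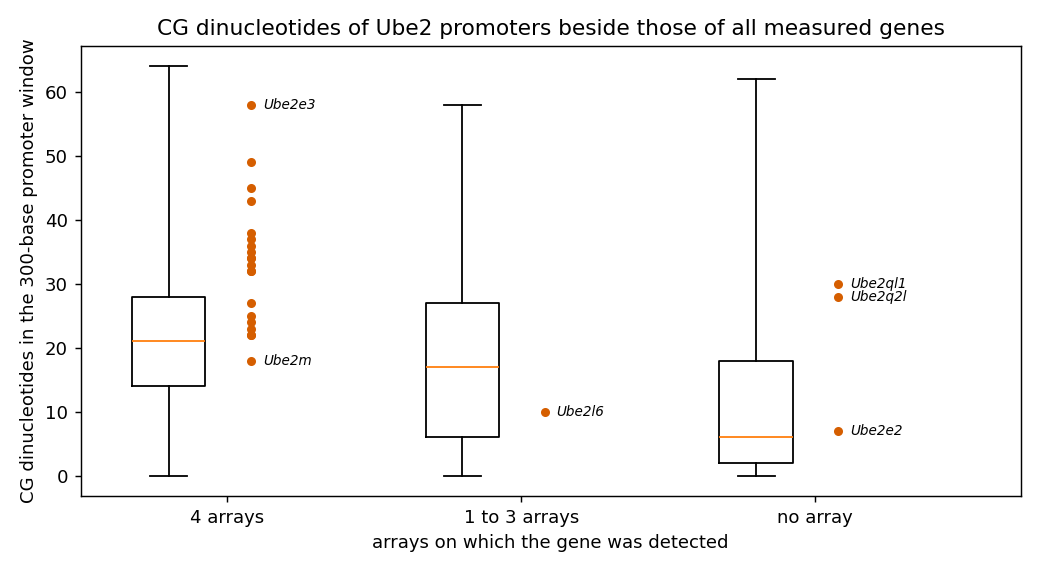
CG dinucleotides in the 300-base promoter window (vertical axis) by the number of arrays on which the gene was detected. Points are the 24 Ube2 genes with a window, 6 of them labelled; boxes show the quartiles and median of all measured genes of the class and whiskers their lowest and highest count. Ube2e2 (7) and Ube2l6 (10) lie below the 20 Ube2 genes detected on all arrays (18 to 58).

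No Ube2 gene was called more variable between arrays than genes of like level. The 23 detected members had a median SD of 0.13 (range 0.04 to 0.42), where the 7570 genes tested had 0.16. With normexp the medians were 0.15 for members and 0.149 for all genes, and without replicate 3 they were 0.134 and 0.136. By limma's trended, robust prior variance, adjusted over all genes tested, 0 of 23 passed 0.05, where 0.515% of all genes did. An unadjusted p under 0.05 was found for 3 of 23, where 6.67% of all genes had one. They were Ube2t (adjusted p = 0.137), Ube2m (adjusted p = 0.228) and Ube2e3 (adjusted p = 0.683). The normexp alternative took the median spot signals in place of the processed ones, so it also left out the scanner software's detrending. With normexp background correction on the median spot signals, 3 members passed, Ube2e3 (SD 0.495, adjusted p = 0.000649), Ube2t (SD 0.436, adjusted p = 0.00693) and Ube2q1 (SD 0.432, adjusted p = 0.0111), where 206 of all genes did. Ube2m went the other way there, to an SD of 0.16 (adjusted p = 0.981). Without replicate 2, Ube2t passed (SD 0.50, adjusted p = 0.046), and without replicate 1 its SD was 0.08 and its adjusted p 0.987.

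This spread was also set beside the position of the spot, split at columns that had been singled out earlier on these same arrays. Replicate 1 was the array farthest from the mean for 8 of 23 members, beside 23.7% of all genes tested. Of the 8 members with their spot in columns 1 to 72 of 164, replicate 1 was farthest in 7, where it was for 35.8% of all genes printed there. Of the 12 members printed beyond column 72 it was farthest in 0, beside 15.6% of all genes there. The median SD was 0.23 for the first 8 and 0.13 for the other 12, and 0.19 and 0.15 for all genes of each side. All of these values took the brightest probe of each gene. Other member probes in columns 1 to 72 were detected on all arrays too. Replicate 1 was farthest for those of Ube2g2 (column 31) and Ube2v1 (column 68). Another array was farthest for those of Ube2d1 (column 67), Ube2k (column 68), Ube2n (column 22) and Ube2v1 (column 52).

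The directions differed within the left part. Ube2t (column 11), Ube2e3 (column 11), Ube2q1 (column 16), Ube2d1 (column 2) and Ube2b (column 10) deviated from their means by -0.62, -0.41, -0.39, -0.21 and -0.12 on replicate 1, where each was lowest. Ube2m (column 16) and Ube2j2 (column 12) deviated upward, by 0.56 and 0.25. Ube2d1 deviated almost as far on replicate 2, by 0.20. By the brightest probe, Ube2g1 (column 61) was the only one of the 8 for which another array was farthest. Ube2l6, printed at column 25, was lowest there as well, but was not well above background on that array. Around the Ube2t spot, 39 detected spots of other probes within 5 rows and 5 columns had a median deviation of 0.08 on replicate 1. Their SD was 0.25 on replicate 1 and 0.14 to 0.15 on the other arrays. Around the spots of all 8 left members the SD of such neighbours on replicate 1 ran from 0.11 (Ube2g1) to 0.36 (Ube2b), and around those of the 12 members beyond column 72 from 0.10 to 0.21. Without replicate 1, Ube2m lay at 3.72 ± 0.19, Ube2e3 at 1.81 ± 0.06 and Ube2q1 at -0.73 ± 0.14. As replicate 1 was the farthest array for each of these genes, leaving it out could not raise their SD. The columns had been singled out earlier on these same arrays, and what position contributed was not tested.

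**Figure D4:**
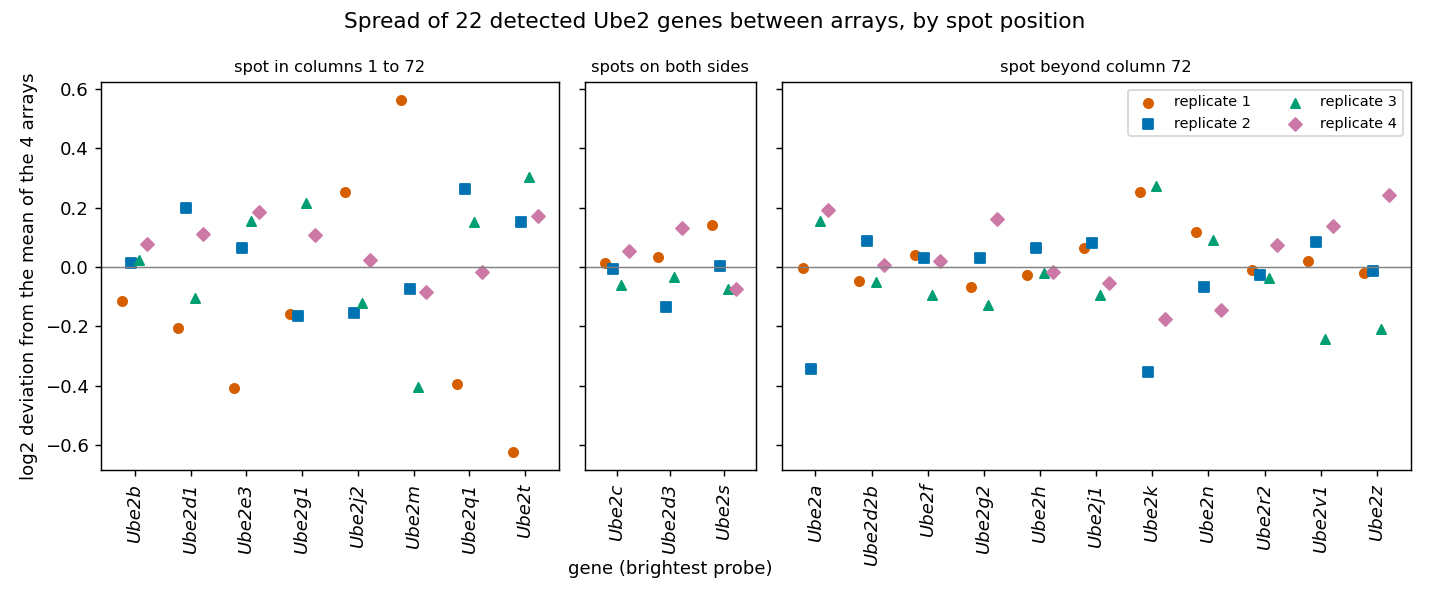
Deviation of 22 detected Ube2 genes from their mean over the 4 arrays (log2, vertical axis), in 3 panels by the columns in which the spot lies; each point is 1 array. Replicate 1 (orange) reaches from -0.62 to 0.56 in columns 1 to 72 and from -0.07 to 0.25 beyond them.

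Probes printed more than once show single spots of the same sequence on both sides. Ube2s has a spot at column 15 and another at column 116. The first minus the second was 0.28 on replicate 1 and -0.23 on replicate 4, and 0.00 on replicates 2 and 3. The spots of Ube2c differed by 0.06 or less on every array. For Ube2d3, the mean of the 5 spots in columns 1 to 72 minus that of the spots beyond was -0.14 on replicate 1, -0.11 on replicate 4 and -0.01 on replicates 2 and 3. The value on replicate 1 alone includes the spot at column 90, its highest, which was left out as an outlier on the other arrays.

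**Figure D5:**
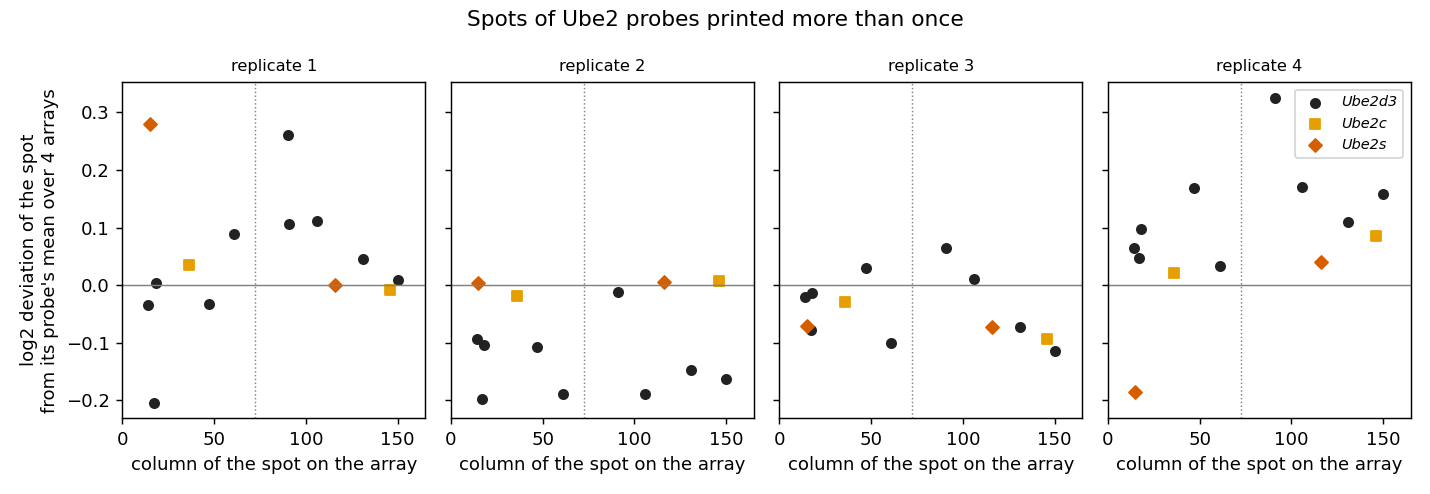
Single spots of 3 Ube2 probes printed more than once, by column on the array (horizontal axis), with their log2 deviation from the probe's mean over the arrays (vertical axis); each panel is 1 array, and the dotted line lies between columns 72 and 73. On replicate 1 the left Ube2s spot lies above the right one by 0.28, and on replicate 4 it lies below it (difference -0.23).

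Members and all genes were also set side by side by their median deviation on each array. For replicates 1 to 4 in turn their median deviation was -0.0019, 0.0046, -0.049 and 0.0748, beside 0.0049, 0.0205, -0.0774 and 0.049 for all genes tested. On replicate 4, 16 of 23 members lay above their mean (62.2% of all genes), and on replicate 3, 8 of 23 did (34.8%). After quantile normalization the signs differed, with medians on replicates 3 and 4 of 0.0331 and -0.00935 for the members and -0.0204 and 0.0184 for all genes. By Dixon's ratio of gap to range, 3 of 23 members (Ube2f, Ube2h and Ube2t) had 1 array apart, beside 5.46% of all genes. With flagged spots kept, or after quantile normalization, 0 of 23 had, while 411 and 451 of all genes did, against 413 without these changes.

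Other genes of the ubiquitin pathway were mostly detected too, in lists drawn up by function. Beside them, 45.7% of all genes measured were detected on all 4 arrays. Of E1 enzyme genes, 7 of 8 were detected on all 4 arrays, the exception being Uba6, an alternative E1 for ubiquitin that also serves FAT10, which was not well above background. Uba1, the main E1 for ubiquitin, lay at 4.95 ± 0.16. Of genes for ubiquitin and its relatives 11 of 13 were detected on all arrays, with the ubiquitin gene Ubb at 7.98 ± 0.17. The other two were Ubd, on no array, and Atg12, on 1. Among 7 measured E2-fold genes with other names 5 were detected on all arrays, while Tsg101, an inactive relative that sorts cargo in endosomes, and Birc6, a giant E2 and ligase, were not well above background. Of 26 genes listed as ligase partners of E2 enzymes, among them ligase subunits, activators and a co-ligase, 24 were detected on all arrays. None of these 4 lists held a gene called variable by limma's prior variance at an adjusted p under 0.05. By the same test an unadjusted p under 0.05 was found for 3 of 24 genes tested in the ligase list. No gene of the other lists had one, where 6.67% of all genes tested did. The 3 genes were Mdm2 (-1.18 ± 0.53, adjusted p = 0.0897), Rnf7 (adjusted p = 0.569) and Ube3a (-3.11 ± 0.52, adjusted p = 0.49). The Ube3a values are from the brightest of 3 probes, of which at least 1 was not well above background on any array.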

How the data were processed

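Per the file headers, the intensity values were made by the authors with Agilent Feature Extraction 11.0.1.1, which subtracts background and detrends within the array; arrays were not brought to a common scale. Its flags, other columns of the deposited files, were used as given. All 4 arrays share 1 slide and 1 scan, per the file headers. Outlier spots (634 to 669 of 58717) were left out, log2 signals were set relative to the array's 75th percentile of the rest, and a probe's spots were averaged. An unversioned accession named 21109 of 45598 probes, and the brightest probe represented a gene. Variances (3 degrees of freedom) were tested against limma's trended, robust prior (24.3 degrees of freedom), upper tail, with Benjamini-Hochberg adjustment over 7570 genes (limma 3.58.1, R 4.3.3), a step tested on simulated data. Precision is limited by there being 4 arrays. Members and lists were chosen with earlier results of these data known. Some genes, 1 member among them, are counted but not reported here. Every other member has its detection, mean and SD; values on each array are given for the mitosis, repair, Lys63, reticulum and ubiquitin-like lists, Ube2d1, Ube2d3, Ube2k, Ube2r2 and the 5 largest and 3 smallest SDs. Pathway genes are named where they share a step with a member or are a list's exception. Alternatives changed the signal with its background correction, normalization, flags, filter, prior, probe rule, position and replicates.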

Additional observations from a re-analysis of the deposited data

Results flagged for a closer look

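In a group of 4 arrays, 1 array was set apart where its gap to the nearest value, over the whole range, passed Dixon's 95% critical value, which chance gives in about 1 of 20 genes. Ube2t lay apart on replicate 1 (ratio 0.836), as did Ube2l6 (0.864), which was not well above background there. Ube2h lay apart on replicate 2 (0.912) and Ube2f on replicate 3 (0.852), each with an SD under 0.07. Among the other pathway genes the ubiquitin gene Ubb lay apart on replicate 3 (0.885) and Aktip, an E2-fold gene without the catalytic cysteine, on replicate 1 (0.835). Ube2f, Ube2h and Ube2t were no longer apart with flagged spots kept or after quantile normalization (0 of 23 members in each).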

How the results depend on the processing

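Detection of 23 members on all arrays gave 23 to 25 under every alternative run. The count of variable members was 0 except with normexp on median signals (3) and, over the fits that left out 1 replicate, 0 to 1 (Ube2t, without replicate 2). Over all genes 39 were variable, against 206 with normexp, 127 with no filter, 9 without robust estimation, 5 beyond column 72, 0 after quantile normalization or without a trend, and 10 to 77 with 1 replicate left out. Members with 1 array apart numbered 3, and 0 with flagged spots kept or after quantile normalization and 5 with normexp. The median SD of 0.135 became 0.168 when detection on 1 array sufficed and 0.185 with no filter, both of which add dim genes, and 0.108 to 0.153 with 1 replicate left out. The median deviation moved on replicate 3 to 0.0331 and on replicate 4 to -0.00935 after quantile normalization, and on replicate 4 to 0.0232 with the mean over detected probes; the cause was not tested. With 1 replicate left out it ran from -0.0324 to 0.048 on replicate 1, -0.0226 to 0.0372 on replicate 2, -0.0462 to -0.0326 on replicate 3 and 0.0528 to 0.0658 on replicate 4. Naming members from a gene-name column was not run. No paired analysis was possible because there is 1 group. Signals near background limit Ube2l6, Ube2v2 and the 3 undetected members.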
